A study of Mus musculus with 10 samples.

Results

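Eicosanoid synthesis and prostaglandin handling were followed in mouse colon crypts through 10 genes, taken by name from 33632 gene IDs in the count table after Ensembl IDs were paired with mouse symbols: Alox5, Alox5ap, Ltc4s, Ptgs1, Ptgs2, Ptges, Hpgds, Slco2a1, Hpgd and Ptger4. All 10 matched an ID, and 9 of them, all but Ptgs2, had enough counts to be tested. The samples were 5 RNA-seq libraries labelled CKO, from Lgr5-EGFP-IRES-CreERT2/+;Sox21fl/fl mice, and 5 labelled flox, from Sox21fl/fl mice. Both groups therefore shared the floxed Sox21 alleles and were labelled as normal diet with a normal liver; in CKO only, a knock-in at Lgr5 made green fluorescent protein and a tamoxifen-inducible Cre recombinase. Cre in CKO was driven from the stem cell gene Lgr5, so deletion of Sox21, a transcription factor gene, is directed at Lgr5-positive cells. The share of crypt cells that carried the deletion was not measured here. The labels give no age, tamoxifen scheme or collection time, and do not tie libraries to animals. The p-values therefore reflect only how these libraries vary, and that variation may be technical.

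Eicosanoids are signalling lipids made from arachidonic acid, which phospholipases release from membranes. Lipoxygenases turn it into leukotrienes and cyclooxygenases into prostaglandins, and the products act on receptors of nearby cells until they are taken up and inactivated. In the gut epithelium of mice, tuft cells, rare chemosensory cells, are known to carry the leukotriene enzymes together with Ptgs1 and Hpgds, while prostaglandin E2 is known to support repair of the crypts.

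None of the 9 tested genes passed the threshold between CKO and flox (edgeR's quasi-likelihood test, Benjamini-Hochberg adjusted p under 0.05 over all 14963 tested genes), which over all genes called 0%. Total counts ranged from 18926634 to 23642415 per library. The mitochondrial share of counts was 4.30% to 11.8% in 8 libraries but 26.5% in flox 1 and 29.3% in flox 4. These 2 stood apart on the first principal component (96.7 and 67.1, against -36.2 to 17.2); results that rest on them are given with and without them. The targeted gene Sox21 had 7.79, 6.73, 3.39, 3.51 and 5.27 CPM (each gene's counts scaled to library size after TMM normalisation) in CKO 1 to 5, against 1.98, 6.53, 4.06, 2.72 and 4.93 CPM in flox 1 to 5. It was therefore not lower in the libraries labelled CKO (log2 fold change 0.38, edgeR adjusted p = 0.577, and 0.05 without flox 1 and flox 4), and CKO and flox below name libraries by label; the labels do not state which part of the gene is deleted. The epithelial markers Epcam and Cdh1 were present in every library, at 961 to 1135 and 771 to 968 CPM in CKO, against 559 to 1102 and 534 to 991 CPM in flox. The summed level of all 8 crypt epithelium markers was lower in CKO, at 13968 to 25462 CPM, against 28290 to 30928 CPM in flox. Most of this sum came from Krt8 and Muc2. Krt8, a keratin, averaged 7907 ± 2113 CPM in CKO and 10855 ± 2188 CPM in flox, with overlap. Its log2 fold change was -0.46 (edgeR adjusted p = 0.447), and -0.24 without flox 1 and flox 4. Of the 8, 3 had a log2 fold change above 0 and 5 below, and 0 passed in edgeR. The 3 were Epcam (0.24), Cdh1 (0.13) and Lgr5 (0.64). Without flox 1 and flox 4, Epcam was at 0.0010 and Cdh1 at -0.06. Picked out after their values were seen, Muc2, the mucin of goblet cells, averaged 8591 ± 2060 CPM in CKO and 14237 ± 3135 CPM in flox without overlap, and Krt18, an epithelial keratin, 663 ± 249 CPM in CKO and 1457 ± 644 CPM in flox (SD, n = 5 each). Their log2 fold changes were -0.73 and -1.14 (edgeR adjusted p = 0.372 and 0.337), and -0.89 and -0.58 when flox 1 and flox 4 were left out, where DESeq2 called Muc2 (adjusted p = 0.0238). The part of such differences in the values below was not tested.

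Per length of transcript, the prostaglandin breakdown gene Hpgd stood above the other 9 genes in each library and Ptgs2, the inducible cyclooxygenase, below them. Levels are given on the scale of the deposited FPKM, the authors' values per length and library total. The median level over 10 libraries was 79.1 for Hpgd, 13.8 for Ltc4s, 8.17 for Slco2a1, 6.67 for Alox5ap and 6.55 for Ptger4. It was 4.57 for Alox5, 2.88 for Ptgs1, 1.70 for Hpgds, 1.03 for Ptges and 0.015 for Ptgs2. Each of the neighbours Hpgd and Ltc4s, and Ltc4s and Slco2a1, kept this order in 10 of 10 libraries. Slco2a1 was above Alox5ap in 7 of 10 libraries and Alox5ap above Ptger4 in 5 of 10, so neither of these pairs of neighbours could be put in an order beyond its spread. The lower end, from Ptger4 over Alox5, Ptgs1 and Hpgds to Ptges, kept its order in 8 or 9 of 10 libraries for each pair of neighbours. The deposited FPKM did not follow the counts by a length fixed over libraries. At similar total counts, Hpgds had 39 counts and 2.23 FPKM in flox 1, but 18 counts and 0.25 FPKM in flox 4. The part of this in the order of the genes was not tested.

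**Figure D1:**
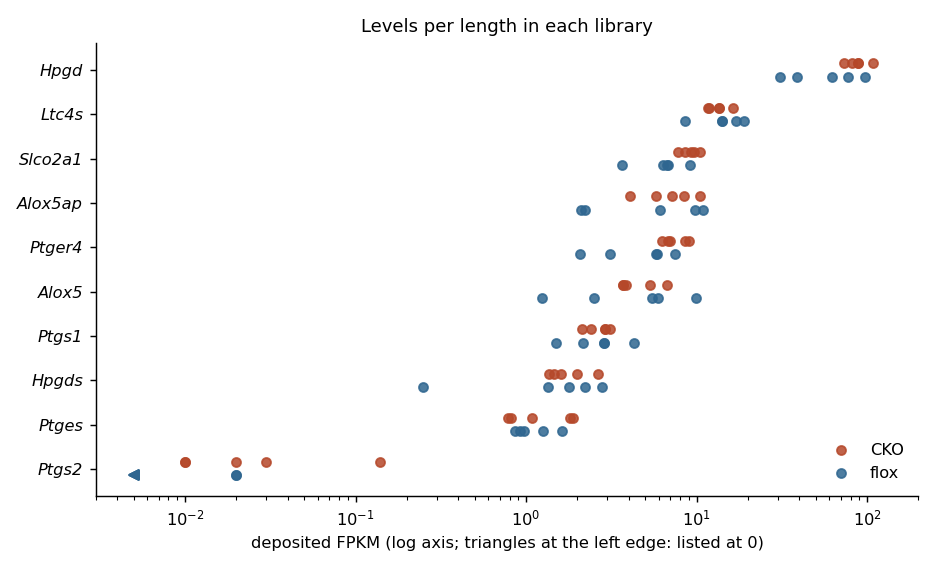
Deposited FPKM of each gene (x axis, log scale) in the 5 CKO and 5 flox libraries, 1 point per library, with genes ordered by their median over 10 libraries; triangles mark libraries where the gene was listed at 0. Hpgd lies between 30.9 and 108 FPKM, and Ptgs2 between 0 and 0.14 FPKM.

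The promoter windows of the genes at both ends of this order are shown here because their levels differ so widely. Those of Slco2a1, which imports prostaglandins, and of the tuft cell gene Hpgds, both within the order, are shown as well. All windows run from 250 bases before to 50 bases after the annotated gene start, 5′ to 3′ on the gene's strand, from RefSeq on GRCm38.p6. The table held a window for 9 of the 10 genes. Capitals mark matches on either strand to TATAAA (the TATA box), to GGGCGG (the GC box) or to ATGCAAAT (the octamer bound by POU factors). The windows lie at chr8:56294302-56294601 (+) for Hpgd, chr9:103008237-103008536 (+) for Slco2a1, chr6:65144681-65144980 (-) for Hpgds and chr1:150099781-150100080 (+) for Ptgs2.
Hpgd: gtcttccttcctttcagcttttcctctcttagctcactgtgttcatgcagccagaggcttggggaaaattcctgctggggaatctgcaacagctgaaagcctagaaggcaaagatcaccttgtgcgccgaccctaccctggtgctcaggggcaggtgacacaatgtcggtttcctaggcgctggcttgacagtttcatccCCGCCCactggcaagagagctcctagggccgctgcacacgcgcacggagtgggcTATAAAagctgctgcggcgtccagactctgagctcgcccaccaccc
Slco2a1: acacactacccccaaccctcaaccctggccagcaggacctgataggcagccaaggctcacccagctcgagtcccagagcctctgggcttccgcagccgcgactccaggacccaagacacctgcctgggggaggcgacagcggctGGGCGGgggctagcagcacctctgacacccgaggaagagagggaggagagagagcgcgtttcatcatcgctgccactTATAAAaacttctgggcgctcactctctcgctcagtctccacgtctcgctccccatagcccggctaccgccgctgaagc
Hpgds: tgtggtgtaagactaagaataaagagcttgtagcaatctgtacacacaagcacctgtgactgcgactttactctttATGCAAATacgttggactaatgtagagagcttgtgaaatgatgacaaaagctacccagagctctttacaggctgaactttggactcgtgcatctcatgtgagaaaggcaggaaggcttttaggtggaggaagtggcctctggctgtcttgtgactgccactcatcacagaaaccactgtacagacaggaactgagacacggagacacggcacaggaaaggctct
Ptgs2: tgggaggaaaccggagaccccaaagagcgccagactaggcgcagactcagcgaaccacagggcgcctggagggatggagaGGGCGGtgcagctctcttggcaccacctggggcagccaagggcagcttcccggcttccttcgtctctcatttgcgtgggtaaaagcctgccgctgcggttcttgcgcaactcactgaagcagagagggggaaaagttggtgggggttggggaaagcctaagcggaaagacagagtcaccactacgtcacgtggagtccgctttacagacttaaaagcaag
The TATA box letters occurred in 2 of the 9 windows, Hpgd and Slco2a1, and in 13.6% of all 32851 windows of the table. Relative to the annotated gene start, the match began at -29 in Slco2a1 and at 4, past that start, in Hpgd. The GC box letters occurred in 6 of 9 and in 35.7% of all windows, and the octamer in 1 of 9, Hpgds, and in 1.74%. The windows shown thus include every one with a TATA box or octamer match, while those of Ltc4s and Ptgs1, not shown, held no match. A match is only a run of letters, and the authors' build is not stated in the labels.

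The leukotriene genes varied widely within both groups, and the groups overlapped for each of them. In bulk libraries such as these, fewer cells of a type and less RNA per cell cannot be told apart. Alox5 (ENSMUSG00000025701) makes the 5-lipoxygenase that starts leukotriene synthesis. It had 11.2, 14.5, 5.19, 7.404 and 6.01 CPM in CKO 1 to 5, against 5.38, 11.6, 10.7, 7.63 and 21.2 CPM in flox 1 to 5. Flox 5 was the highest of the 10 libraries and CKO 2 the next, while CKO 3, CKO 5 and flox 1 were low. The means were 8.87 ± 3.91 CPM in CKO and 11.3 ± 6.04 CPM in flox (SD, n = 5 each). This difference, -0.36 ± 0.37 (SE) as log2 fold change, did not pass (edgeR adjusted p = 0.635). Without flox 1 and flox 4 it was -0.70 ± 0.35, with an adjusted p of 0.810.

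Alox5ap (ENSMUSG00000060063) encodes the membrane protein that presents arachidonic acid to 5-lipoxygenase. It stood at 4.11, 5.39, 3.01, 5.21 and 6.44 CPM in CKO, against 3.01, 4.30, 6.24, 3.48 and 8.05 CPM in flox. As with Alox5, flox 5 was the highest library. The log2 fold change was -0.06 ± 0.30 (SE), and the ratio of CKO to flox had a 95% interval from 0.612 to 1.498. Leaving out flox 1 and flox 4 moved the log2 fold change to -0.35 ± 0.27, with a ratio interval from 0.518 to 1.19.

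Ltc4s (ENSMUSG00000020377), the synthase that joins glutathione to leukotriene A4 to make leukotriene C4, had 3.46, 3.37, 3.46, 5.65 and 3.75 CPM in CKO, against 11.5, 2.38, 4.90, 8.16 and 5.80 CPM in flox. The 2 highest values were those of flox 1 and flox 4, where mitochondrial reads were abundant, and the remaining flox values spanned those of CKO. Its log2 fold change of -0.72 ± 0.35 (SE) was the furthest from 0 of the 9 and did not pass (edgeR adjusted p = 0.395). Without these 2 libraries it was -0.14 ± 0.30 (edgeR adjusted p = 0.962). For Alox5 and Alox5ap, by contrast, flox 1 and flox 4 were the 2 lowest flox libraries.

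**Figure D2:**
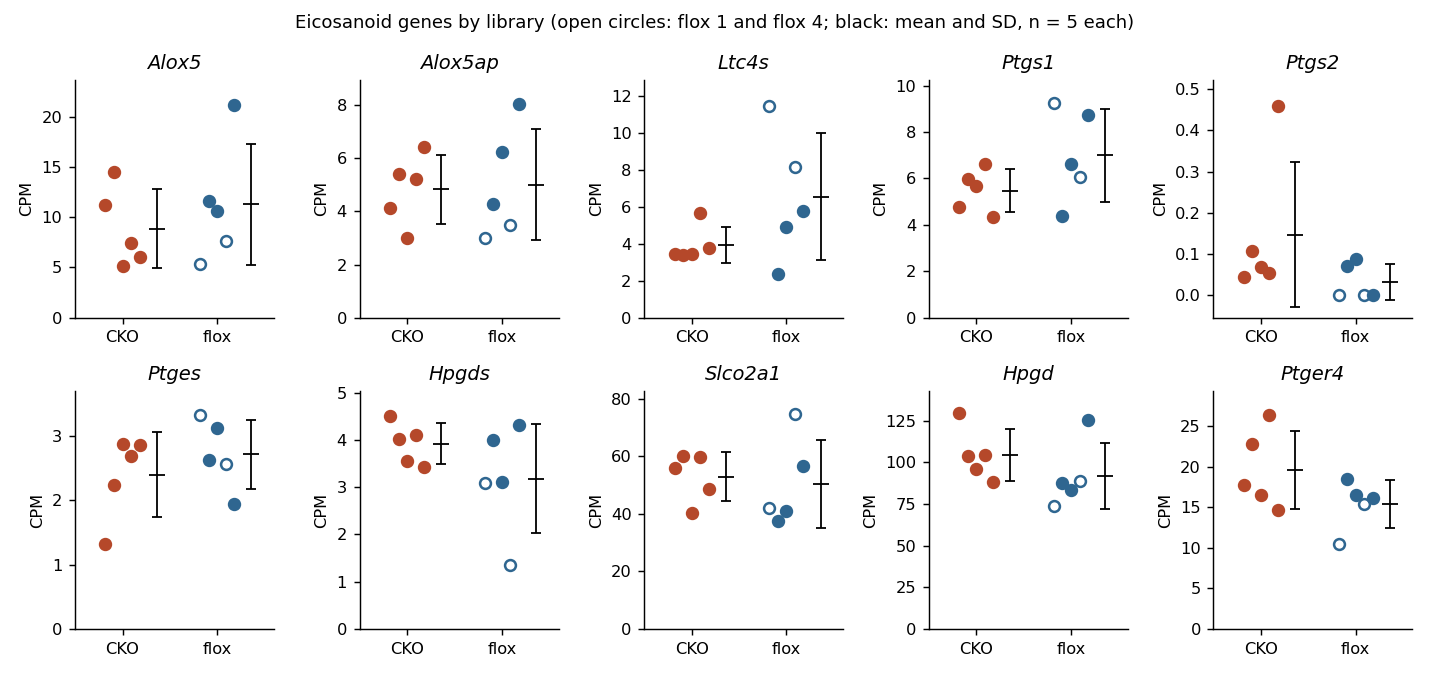
CPM of the 10 genes in each CKO (left) and flox (right) library, 1 point per library in replicate order, with the group mean and SD (n = 5 each) in black and flox 1 and flox 4 as open circles. The groups overlap in 10 of 10 panels; flox 1 (11.5 CPM) and flox 4 (8.16 CPM) are the top values of Ltc4s.

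Of the cyclooxygenases, Ptgs1 was detected in every library and Ptgs2 was near the limit of detection. Ptgs1 (ENSMUSG00000047250), the constitutive enzyme of the first step from arachidonic acid to prostaglandins, had 4.77, 5.97, 5.67, 6.64 and 4.35 CPM in CKO, against 9.26, 4.37, 6.64, 6.04 and 8.74 CPM in flox. Flox 1 and flox 5 lay well above all CKO libraries, flox 3 was level with the highest of them, and flox 2 was at the level of the lowest CKO library. The means were 5.48 ± 0.921 CPM in CKO and 7.01 ± 2.01 CPM in flox (SD, n = 5 each), with a log2 fold change of -0.35 ± 0.22 (SE) and an edgeR adjusted p of 0.456. Leaving out flox 1 and flox 4 gave a log2 fold change of -0.26 ± 0.24.

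Ptgs2 (ENSMUSG00000032487), the cyclooxygenase induced in inflammation and wounding, had 1, 3, 2, 1 and 13 counts in CKO 1 to 5, against 0, 2, 2, 0 and 0 counts in flox 1 to 5. CKO 5 with 0.460 CPM was the only library over 3 counts, and the other 9 libraries had 0 to 0.109 CPM. A count of 0 allows up to 3 counts, which is 0.237 CPM in flox 1, 0.227 in flox 4 and 0.130 in flox 5, for counting error only. Ptgs2 did not pass the filter on low counts, so no fold change or test is given, and a difference between the groups was not detectable at this depth.

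The terminal synthases Ptges and Hpgds overlapped between the groups. Ptges (ENSMUSG00000050737), the inducible synthase of prostaglandin E2, had 1.31, 2.24, 2.87, 2.69 and 2.87 CPM in CKO, against 3.32, 2.63, 3.12, 2.57 and 1.95 CPM in flox. CKO 1 was the lowest library, and the other CKO values lay within the flox range. Its log2 fold change was -0.18 ± 0.26 (SE), and -0.09 ± 0.30 in the 8 libraries other than flox 1 and flox 4. Hpgds (ENSMUSG00000029919), the synthase of prostaglandin D2 in blood-derived and tuft cells, had 4.51, 4.02, 3.56, 4.11 and 3.43 CPM in CKO, against 3.09, 4.01, 3.12, 1.36 and 4.33 CPM in flox. The CKO libraries lay close together. Flox 4 was far the lowest library, and flox 1 and flox 3 also lay below the lowest CKO value. The log2 fold change of Hpgds was 0.29 ± 0.27 (SE) and 0.04 ± 0.20 without flox 1 and flox 4.

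Genes of prostaglandin uptake, inactivation and reception overlapped between the groups as well. Slco2a1 (ENSMUSG00000032548), the transporter that brings prostaglandins into cells, stood at 56.0, 60.1, 40.2, 59.8 and 48.7 CPM in CKO, against 42.1, 37.6, 41.0, 74.6 and 56.5 CPM in flox. Flox 4 was the highest library and flox 2 the lowest, so the flox range contained that of CKO. The log2 fold change was 0.07 ± 0.20 (SE), with a 95% interval of the ratio from 0.781 to 1.42; leaving out flox 1 and flox 4 gave 0.24 ± 0.18.

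Hpgd (ENSMUSG00000031613), the dehydrogenase that inactivates prostaglandins once they are inside the cell, had 129, 104, 95.7, 104 and 87.9 CPM in CKO, against 73.6, 87.7, 83.2, 89.0 and 125 CPM in flox. Flox 5 was high, beside CKO 1, and the other 4 flox libraries reached at most 89.0 CPM, near the lowest CKO value. The means were 104 ± 15.5 CPM in CKO and 91.8 ± 19.8 CPM in flox (SD, n = 5 each). The log2 fold change of 0.18 ± 0.16 (SE) did not pass (edgeR adjusted p = 0.569), and the 95% interval of the ratio ran from 0.893 to 1.44. Leaving out flox 1 and flox 4 gave 0.08 ± 0.17.

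Ptger4 (ENSMUSG00000039942), the EP4 receptor for prostaglandin E2, had 17.8, 22.8, 16.5, 26.4 and 14.6 CPM in CKO, against 10.5, 18.5, 16.5, 15.4 and 16.1 CPM in flox. CKO 4 and CKO 2 were the highest libraries, flox 1 was the lowest, and the rest overlapped. Its log2 fold change of 0.34 ± 0.19 (SE) was the highest of the 9 tested genes and did not pass (edgeR adjusted p = 0.430). Without flox 1 and flox 4 it was 0.21 ± 0.19.

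Across the 9 tested genes, 4 had a log2 fold change above 0 and 5 below, with a median of -0.06, where the median of all 14963 tested genes was 0.0010; leaving out flox 1 and flox 4, these medians were -0.09 and 0.02. By edgeR 0 of 9 passed after adjustment and 0 of 9 had an unadjusted p under 0.05, against 13.0% of all genes at the unadjusted mark (5.05% higher and 7.91% lower in CKO). DESeq2, which called 0.957% of the genes it gave an adjusted p, called 0 of the 9. None of the 9 had groups that did not overlap in CPM, against 2.18% of all genes. The ratio of CKO to flox had 95% limits of 0.444 to 1.37 for Alox5 and 0.356 to 1.03 for Ltc4s, so a 2-fold lower level in CKO was within both; at this depth and spread, the data do not show that the groups are alike.

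**Figure D3:**
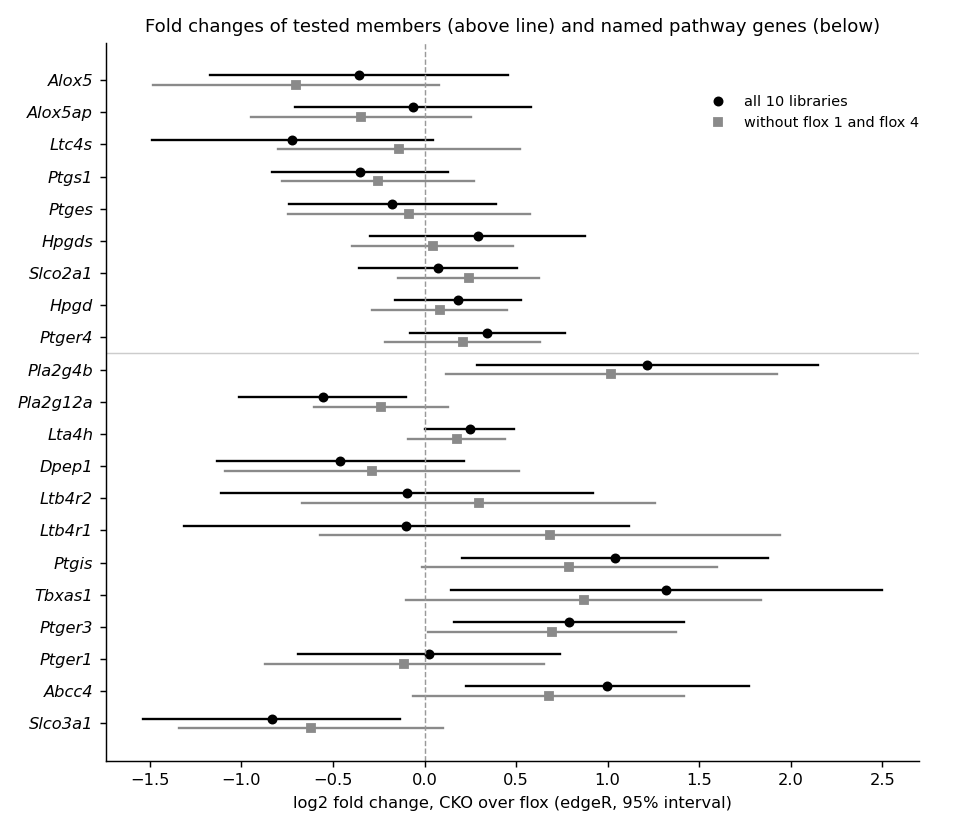
Log2 fold change of CKO over flox with its 95% interval from edgeR for the 9 tested genes (above the line) and 12 further pathway genes (below), from all 10 libraries (black circles) and without flox 1 and flox 4 (grey squares). For the 9 genes the intervals from all libraries span 0; Ltc4s is at -0.72 with and -0.14 without those libraries.

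Of 58 other genes of eicosanoid release, synthesis, transport and reception, 55 matched an ID and 38 were tested. By edgeR 0 of the 38 passed after adjustment in either direction, and DESeq2 called 0. At an unadjusted p under 0.05 there were 6 higher and 3 lower in CKO, together 23.7% of the 38 against 13.0% of all genes, and without flox 1 and flox 4 there were 2 higher and 0 lower, against 6.41% of all genes. Their median log2 fold change was -0.07, with 15 above 0 and 23 below, and its sign turned to 0.13 when flox 1 and flox 4 were left out. The 2 genes with the smallest p of each role follow as values; none of them passed the adjustment.

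Among 13 tested phospholipases, Pla2g4b, a cytosolic enzyme, averaged 1.48 ± 0.703 CPM in CKO and 0.625 ± 0.266 CPM in flox, and Pla2g12a, a secreted enzyme, 13.0 ± 2.52 CPM in CKO and 19.2 ± 6.11 CPM in flox (SD, n = 5 each). The log2 fold changes were 1.22 ± 0.43 and -0.56 ± 0.21 (SE, edgeR adjusted p = 0.365 and 0.372), and 1.02 and -0.24 without flox 1 and flox 4. Among 6 tested lipoxygenases and leukotriene enzymes, Lta4h, the hydrolase that makes leukotriene B4, averaged 108 ± 11.2 CPM in CKO and 90.8 ± 7.54 CPM in flox. Dpep1, a dipeptidase that can cleave leukotriene D4, averaged 432 ± 190 CPM in CKO and 594 ± 122 CPM in flox. Their log2 fold changes were 0.25 ± 0.11 and -0.46 ± 0.31 (SE), and 0.18 and -0.29 when flox 1 and flox 4 were left out. The lipoxygenases Alox12, Alox12b, Alox12e, Alox8 and Aloxe3 stayed at or under 0.312 CPM in every library and were not tested.

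Of the leukotriene receptors, Ltb4r1 and Ltb4r2, which bind leukotriene B4, were tested. Ltb4r1 averaged 0.965 ± 0.772 CPM in CKO and 1.05 ± 0.632 CPM in flox, and Ltb4r2 1.04 ± 0.580 CPM in CKO and 1.13 ± 0.744 CPM in flox. Both had a log2 fold change of -0.10 over all libraries, and of 0.69 and 0.30 without flox 1 and flox 4. The receptors for cysteinyl leukotrienes, Cysltr1 and Cysltr2, reached at most 0.0724 and 0.415 CPM and were not tested.

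Among 8 tested prostanoid synthases, Ptgis, which makes prostacyclin, had 4.81, 5.29, 9.20, 10.3 and 13.2 CPM in CKO, against 4.19, 4.58, 6.95, 1.44 and 3.42 CPM in flox. Tbxas1, the thromboxane synthase, averaged 0.538 ± 0.168 CPM in CKO and 0.190 ± 0.154 CPM in flox. Their log2 fold changes were 1.04 ± 0.38 and 1.32 ± 0.54 (SE; edgeR adjusted p = 0.372 and 0.374), and 0.79 and 0.87 without flox 1 and flox 4. The high libraries of Ptgis were CKO 3, CKO 4 and CKO 5. In the same libraries the summed level of 11 fibroblast and muscle markers was 146, 140 and 212 CPM, against 62.1 and 66.8 CPM in CKO 1 and CKO 2 and 27.7 to 85.4 CPM in flox. The 9 tested markers of that list all had a log2 fold change above 0 and 0 passed, with Col1a1 at 1.12 and Col1a2 at 1.43. Their median was 0.72, and 1.02 without flox 1 and flox 4. At an unadjusted p under 0.05 by edgeR, 4 were higher in CKO, which is 44.4% against 13.0% of all genes. Without flox 1 and flox 4 this count was 0, against 6.41% of all genes. The part of these cells in the Ptgis values was not tested.

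Of the other prostaglandin receptors, Ptger3, the EP3 receptor, averaged 4.37 ± 1.68 CPM in CKO and 2.53 ± 0.594 CPM in flox, and Ptger1, the EP1 receptor, 1.65 ± 0.696 CPM in CKO and 1.61 ± 0.428 CPM in flox (SD, n = 5 each). Their log2 fold changes were 0.79 ± 0.29 and 0.02 ± 0.33 (SE, edgeR adjusted p = 0.370 and 0.973), and 0.69 and -0.11 when flox 1 and flox 4 were left out. Ptger2, Ptgdr2, Ptgfr, Ptgir and Tbxa2r reached at most 0.355 CPM in any library and were not tested. In the transport list, Abcc4, an exporter of prostaglandins, averaged 7.97 ± 3.58 CPM in CKO and 3.94 ± 1.61 CPM in flox, with its high values in CKO 3 (10.9 CPM) and CKO 5 (12.7 CPM). Slco3a1, an uptake transporter, averaged 0.761 ± 0.1002 CPM in CKO and 1.38 ± 0.596 CPM in flox. Their log2 fold changes were 0.999 ± 0.35 and -0.84 ± 0.32 (SE, edgeR adjusted p = 0.365 and 0.372), and 0.68 and -0.62 without flox 1 and flox 4.

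The tuft cell marker list, which left out the 10 genes, was examined library by library beside Alox5. Of 23 tested tuft cell markers, 18 were highest in flox 5, the library where Alox5 and Alox5ap were highest too, and 13 were lowest in CKO 5. Dclk1, a kinase of tuft cells, had 29.5, 31.0, 13.9, 17.1 and 14.6 CPM in CKO, against 13.1, 26.6, 23.0, 12.8 and 44.4 CPM in flox. Trpm5, their taste-pathway channel, had 26.6, 36.2, 13.0, 18.6 and 12.9 CPM in CKO, against 17.2, 28.4, 28.7, 13.0 and 45.8 CPM in flox. Both followed the order of Alox5 at the top, with flox 5 first and CKO 2 next. By edgeR 0 of the 23 passed; 22 had a log2 fold change below 0, with a median of -0.29 over all libraries and -0.57 when flox 1 and flox 4 were left out. The summed level of the 24 markers was 201 to 434 CPM in CKO and 326 to 478 CPM in flox. Like Dclk1 and Trpm5, this sum was highest in flox 5 and next in CKO 2. Its lowest values were those of CKO 5 (201 CPM) and CKO 3 (235 CPM), whereas Dclk1 was lowest in flox 4 and flox 1. The sum therefore followed Dclk1 only in part. Espn, an actin-bundling gene of that list, supplied 68.1 to 168.3 CPM of the sum in CKO and 118 to 168 CPM in flox. Its share was 168 CPM in flox 1 and 157 CPM in flox 4, where Dclk1 and Trpm5 were low. The part of tuft cells in the values of Alox5 was not tested.

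**Figure D4:**
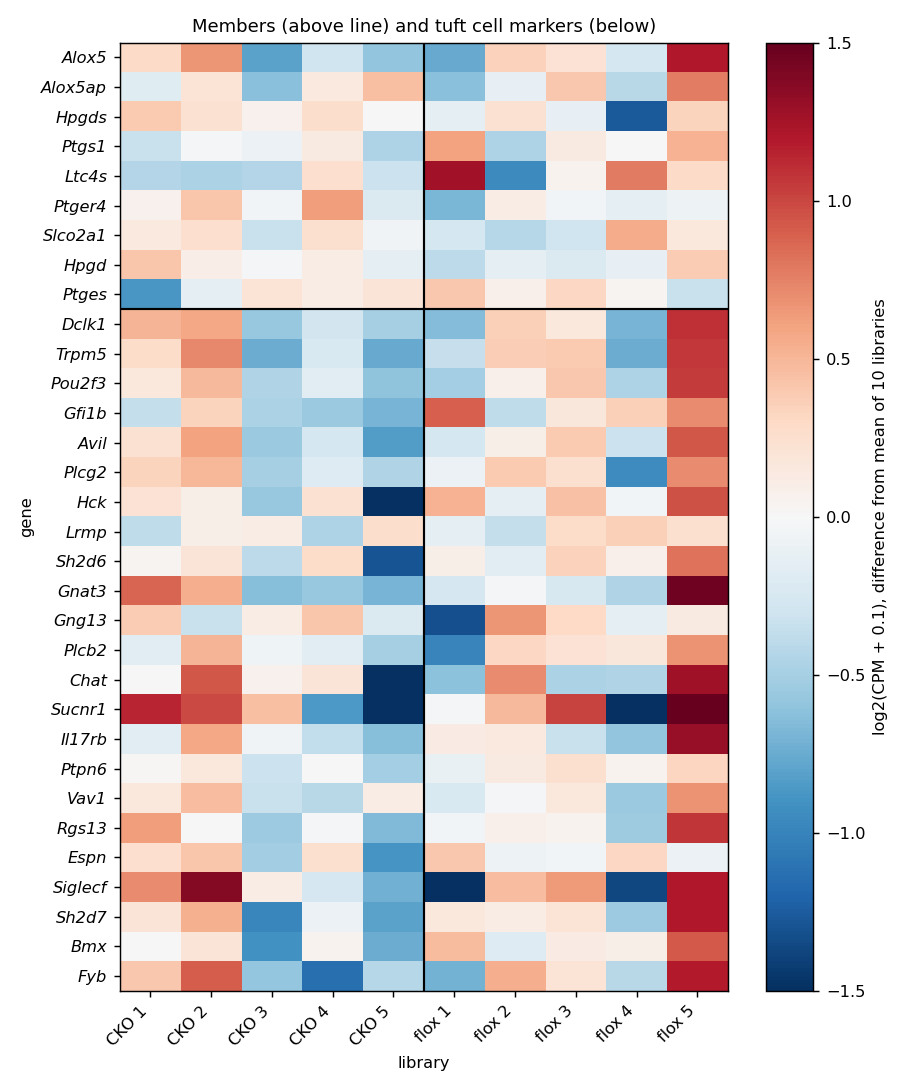
Difference of log2(CPM + 0.1) from the mean of the 10 libraries for the 9 tested genes (above the line) and the 23 tested tuft cell markers (below), with CKO libraries left of flox libraries. Flox 5 is the highest library for Alox5, Alox5ap and 18 of the 23 markers, while Ltc4s is highest in flox 1.

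Markers of other cells known to make eicosanoids were also examined. The mast cell genes Cpa3 and Fcer1a, which mark a known source of leukotrienes and prostaglandin D2, reached 0.306 and 0.110 CPM in CKO and 0.178 and 0.107 CPM in flox. The summed level of 11 mast cell markers was 36.1 to 50.6 CPM in CKO and 33.2 to 85.9 CPM in flox, with Kit, which other cells also express, at a mean of 37.1 CPM in CKO and 33.9 CPM in flox. That of 12 myeloid markers was 48.5 to 102 CPM in CKO and 45.4 to 73.5 CPM in flox, with Cd14 at a mean of 42.7 CPM in CKO and 41.0 CPM in flox. Cd68 and Csf1r averaged 1.28 ± 0.590 and 1.67 ± 1.49 CPM in CKO, against 0.982 ± 0.606 and 2.12 ± 2.03 CPM in flox. By edgeR 0 markers of either list passed, while DESeq2 called Mcpt1, a mast cell protease, which had 3.74 ± 1.78 CPM in CKO and 9.92 ± 3.91 CPM in flox (SD, n = 5 each; adjusted p = 0.0309 by DESeq2 and 0.311 by edgeR); without flox 1 and flox 4 the DESeq2 value was 0.418. Ptprc, the general leukocyte marker, averaged 6.21 ± 2.35 CPM in CKO and 6.33 ± 2.02 CPM in flox, and Cd3e, a T cell marker, 2.10 ± 0.989 and 2.70 ± 0.998 CPM. The 6 leukocyte markers summed to 7.18 to 14.9 CPM in CKO and 12.3 to 17.2 CPM in flox, and the 8 vessel markers to 5.48 to 9.30 CPM in CKO and 9.33 to 12.9 CPM in flox. The colonocyte markers Krt20 and Car1 averaged 899 ± 399 and 3623 ± 2311 CPM in CKO, against 862 ± 140 and 4947 ± 863 CPM in flox. Krt20 had a log2 fold change of 0.06 and Car1 of -0.45, and of the 10 colonocyte markers 5 were above 0 and 5 below. At an unadjusted p under 0.05, 2 were higher and 0 lower in CKO by edgeR, which is 20% against 13.0% of all genes. When flox 1 and flox 4 were left out, 4 were higher and 0 lower, where the share of all genes was 6.41%. After adjustment 0 passed. The 2 over all libraries were the transporters Slc26a3, at 331 ± 41.3 CPM in CKO and 193.5 ± 93.0 CPM in flox, and Slc37a2, at 70.7 ± 43.3 CPM in CKO and 27.4 ± 11.2 CPM in flox. Furthest below 0 were Guca2a and Cdhr5, with log2 fold changes of -0.57 and -0.53, and of 0.26 and -0.28 without flox 1 and flox 4. The water channel Aqp8 stood at 0.66 on the log2 fold change scale and at 1.66 when flox 1 and flox 4 were left out, where DESeq2 called it (adjusted p = 0.00352; edgeR adjusted p = 0.550). The vessel markers Pecam1 and Cdh5 averaged 1.77 ± 0.867 and 0.00875 ± 0.0196 CPM in CKO, against 1.605 ± 0.582 and 0.136 ± 0.151 CPM in flox. DESeq2 also called Vwf, a vessel gene, at 3.57 ± 0.487 CPM in CKO and 6.49 ± 0.564 CPM in flox (SD, n = 5 each; adjusted p = 0.000687 by DESeq2 and 0.174 by edgeR), and its DESeq2 value without flox 1 and flox 4 was 0.0238.

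The genes whose pattern was most like that of each of the 9 genes were named by Pearson's r of log2 CPM among 9665 genes, as a description without a test. Over 10 libraries these were Rab35 (r = 0.98), Nmt1 (r = 0.97) and Rnf213 (r = 0.97) for Alox5, Fos (0.87), Srd5a3 (0.86) and Cdr2 (0.86) for Alox5ap, Rab7 (0.98), Cd72 (0.97) and Med19 (0.97) for Ltc4s. They were Ide (0.90), Mob3c (0.88) and Matk (0.86) for Ptgs1, Zfp764 (0.94), Tspyl2 (0.92) and Cdk5rap2 (0.89) for Ptges, Plcg1 (0.96), Il6st (0.93) and Rer1 (0.93) for Hpgds, and Eps8l3 (0.91), Mtf1 (0.90) and Dusp5 (0.88) for Slco2a1, Wac (0.98), Mpp5 (0.96) and Csnk1g3 (0.95) for Hpgd, Cldn23 (0.91), Stk10 (0.90) and Sh2b3 (0.90) for Ptger4. All of these values come from the same libraries and share their depth and mitochondrial share. Over the 8 libraries without flox 1 and flox 4, the genes most like Alox5 were Dclk1 (r = 0.99), Trpm5 (0.99) and St3gal4 (0.98), the first 2 of them tuft cell markers. Of the 27 pairs made of each gene and its 3 most alike genes, 5 recurred over those 8 libraries: Rab7 with Ltc4s, Mob3c with Ptgs1, Wac and Mpp5 with Hpgd, and Zfp764 with Ptges.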

How the data were processed

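RNA of colon crypts was enriched for mRNA and sequenced, per the labels' protocols, and the submitters' processing notes name fastp and HISAT2; for build, counter and strandedness the entry is: not given in the sources used here. Deposited counts are whole, unnormalized reads per gene, and the deposited FPKM are the authors' values per length and library total. IDs were paired with symbols from GENCODE M21 (26095 of 33632 matched). The 10 genes and the lists (158 entries, 155 matched) were chosen with earlier results of these data known. Groups came from sample titles. After edgeR's filterByExpr, 14963 genes were TMM-normalised and compared by edgeR 4.0.16 (robust glmQLFit, glmQLFTest; R 4.3.3), group only, with Benjamini-Hochberg adjustment over all of them. Intervals are at 95%. Log2 CPM for likeness used a prior count of 2 and genes of at least 5 CPM on average. Alternatives used DESeq2 1.42.0, limma 3.58.1 on counts and on log2(FPKM + 1) or log2(FPKM + 0.1), other filters and scalings, left-out libraries and covariates. All 10 genes are named; of each pathway list, any called gene, failing that the 2 lowest p; of each marker list, its first 2; of likeness, the 3 highest r. Pla2g4c, Kit, Cd14, Espn, Mcpt1, Vwf, Muc2, Krt8, Krt18, Lgr5, Slc26a3, Slc37a2, Guca2a, Cdhr5, Aqp8 and the genes most like Alox5 over 8 libraries are named after their values were seen. No pair of libraries differed by as little as sampling noise (lowest chi-square per degree of freedom 30.0 over 45 pairs).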

Additional observations from a re-analysis of the deposited data

Results flagged for a closer look

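Single libraries stood far from the other 4 of their group, judged by the gap to the nearest library over the group's range, in 6 of 44 groups examined (the 10 genes and 12 pathway genes in both labels). The limit used is passed by about 1 in 20 groups of independent, normally distributed values. CPM of genes from the same libraries are not independent, so the 6 cannot be weighed against that rate. Ltc4s was 5.65 CPM in CKO 4, against 3.37 to 3.75 CPM in the other CKO libraries. Ptgs2 was 0.460 CPM in CKO 5, against 0.0438 to 0.109 CPM in the others, which is 13 counts against 1 to 3. In CKO 4 also, Pla2g12a was 17.4 CPM, against 10.9 to 12.6 CPM, and Ltb4r1 was 2.30 CPM, against 0.326 to 0.831 CPM. In flox 1, Pla2g4b was 0.158 CPM, against 0.675 to 0.822 CPM in the other flox libraries, and Ltb4r2 was 2.45 CPM, against 0.680 to 0.959 CPM. The mitochondrial share was 11.8% in CKO 4, the highest of the CKO libraries, and 26.5% in flox 1; its part in these values was not tested.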

How the results depend on the processing

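The count of called genes was 0, of the 9 tested and of the 38 pathway genes, under each of the 25 alternatives run. The lowest adjusted p of the 9 was 0.183, for Ltc4s without flox 2. Over all genes DESeq2 called 165, and 68 without flox 1 and flox 4. Voom with quality weights called 44, the fit without a filter 3, the fit without flox 2 called 2, and the mitochondrial covariate 1. The other alternatives called 0 of all genes, so there the count of 0 could not come out otherwise. Of 225 fold changes of the 9 genes under alternatives, 12 changed sign. The median of the 9 was -0.06 and became -0.28 with voom quality weights, 0.14 on log2(FPKM + 1) and 0.36 on log2(FPKM + 0.1). The FPKM were not rescaled between libraries and did not follow the counts by a fixed length. On these FPKM scales all genes shifted by a median of 0.30 and 0.41, so that the median of the 9 was below that shift. On these 2 scales Alox5 was 0.0901 and 0.17, Alox5ap 0.35 and 0.45, Ptgs1 0.018 and 0.0407, and Ptges 0.0800 and 0.12. With 1 library left out in turn, the median ran from -0.19 to 0.12, Alox5ap from -0.19 to 0.17, Slco2a1 from -0.0136 to 0.26 (below 0 without flox 2), Alox5 from -0.61 to -0.0018 and Ltc4s from -0.94 to -0.42. With the mitochondrial share as a covariate Ltc4s was -0.08, Alox5 -0.73, Alox5ap -0.34, Slco2a1 0.27, Hpgds 0.04, Hpgd 0.10, Ptges -0.09 and Ptgs1 -0.23. With the replicate number as a block the median was -0.01 and 0 genes were called. Same-numbered libraries correlated at -0.30 to 0.40, and each CKO library correlated more with a flox library of another number (0.13 to 0.50). Whether the numbers mark pairs cannot be told from these correlations, which differences between single libraries can mask. DESeq2 without flox 1 and flox 4, added after the data were seen, called 0 of the 9 and 0 of the 38. Depth limits Ptgs2 alone of the 10 genes to a level without a test.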

Other observations

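The phospholipase Pla2g4c, a cytosolic enzyme that releases fatty acids from membranes, varied more than 10-fold across libraries and was singled out after its values were seen. It had 562, 648, 103, 214 and 97.4 CPM in CKO 1 to 5, against 479, 570, 640, 490 and 1275 CPM in flox 1 to 5. CKO 3, CKO 4 and CKO 5 were the low libraries and flox 5 the high one, and CKO 1 and CKO 2 lay within the flox range. The means were 325 ± 262 CPM in CKO and 691 ± 333 CPM in flox (SD, n = 5 each), with a log2 fold change of -1.09 ± 0.54 (SE) that did not pass (edgeR adjusted p = 0.397) and of -1.35 without flox 1 and flox 4. The same 3 CKO libraries were those with the high sums of fibroblast and muscle markers given above; the part of those cells in the Pla2g4c values was not tested.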
